A study of Mus musculus with 8 samples.

Results

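BRG1 regions over internal coding exons are stretches of chromatin enriched for BRG1 that reach into the protein-coding part of a gene, away from where the gene begins and ends. They were taken from the list that the authors deposited for Tβ4-primed, injured mouse hearts, with input chromatin as the control. A region was kept when it lay on 1 of the 19 autosomes, was at most 100 kb long and shared at least 1 bp with coding sequence (CDS) of a protein-coding gene. It also had to lie more than 1 kb from the start (transcription start site, TSS) and the 3' end of every annotated gene, whatever its kind. Starts and ends of other transcripts inside a gene did not count for this limit. Of the 524614 regions of the list, 29119 met this rule, or 5.55%, and 19827 remained when the limit was applied to the ends of every annotated transcript as well. Regions lying wholly inside introns under the same limits, 149891 in number, served for comparison.

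The chromatin came from adult C57BL/6 mice, aged 10 to 12 weeks by the sample labels. For mice with infarction in general, the methods state an older range. Priming took up the week before surgery, with a daily i.p. dose of PBS or of Tβ4 at 12 mg per kg. The left anterior descending artery was then ligated to cause myocardial infarction (MI), injections were repeated on days 0 and 2, and whole hearts were taken on day 4. Each priming gave 2 ChIP libraries made with an anti-Brg1 antibody and 2 input libraries, 8 in all. The list used here describes the Tβ4-primed, injured hearts alone, and PBS-primed hearts were not analysed here. It gives a start and an end for each region, on the mouse build mm9, without a score, and does not separate the duplicates. Which MACS2 function made the list is unsure. Depth and spread between replicates are therefore unknown and no test was possible. Intervals are 95% intervals for counting error, which treat exons or regions as independent. A whole heart mixes muscle, epicardial, endothelial, fibroblast and blood cells, so the cells that carried a region cannot be told apart.

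BRG1 is the ATPase that drives SWI/SNF, a complex that slides or evicts nucleosomes, and it is best known at enhancers and gene starts. Coding exons are short islands in long introns, richer in G and C than their surroundings, and nucleosomes tend to sit on them. SWI/SNF subunits have also been linked to the choice of alternative exons while RNA is being made, which makes coding exons a place where BRG1 may be looked for.

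The shortest regions show what such an overlap looks like at the level of bases. Of the 3920 regions of 210 to 300 bp, 1231 held at least 1 whole coding exon. From fixed gene lists, the shortest region of this kind in a gene is shown for up to 2 genes a list, without annotated UTR bases. Each sequence is the mm9 reference of the whole region, read along the coding strand of the gene. Capitals mark the coding exon and lower case the introns on either side, so that each exon is preceded by ag and followed by gt. The genes encode titin (Ttn) and nebulin (Neb) of the sarcomere, a calcium channel subunit (Cacna1c) and a calcium release channel (Itpr1), and fibronectin (Fn1) and a fibrillar collagen (Col3a1) of the matrix. They are joined by BRG1 itself (Smarca4) and another SWI/SNF subunit (Arid2), and by the synaptic adhesion protein neurexin 3 (Nrxn3).
Ttn, chr2:76692390-76692629, minus strand: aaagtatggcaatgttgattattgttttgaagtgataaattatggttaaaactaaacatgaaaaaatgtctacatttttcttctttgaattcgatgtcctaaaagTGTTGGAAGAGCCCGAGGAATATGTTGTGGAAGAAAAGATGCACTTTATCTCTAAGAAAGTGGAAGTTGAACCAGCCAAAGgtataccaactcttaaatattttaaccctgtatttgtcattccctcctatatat
Neb, chr2:52062060-52062329, minus strand: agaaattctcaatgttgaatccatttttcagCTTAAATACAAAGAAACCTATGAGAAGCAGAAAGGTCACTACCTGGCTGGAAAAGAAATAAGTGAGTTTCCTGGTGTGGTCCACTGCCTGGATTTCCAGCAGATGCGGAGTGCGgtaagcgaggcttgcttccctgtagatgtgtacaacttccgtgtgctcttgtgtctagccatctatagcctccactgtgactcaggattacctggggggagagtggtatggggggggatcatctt
Cacna1c, chr6:118624230-118624529, minus strand: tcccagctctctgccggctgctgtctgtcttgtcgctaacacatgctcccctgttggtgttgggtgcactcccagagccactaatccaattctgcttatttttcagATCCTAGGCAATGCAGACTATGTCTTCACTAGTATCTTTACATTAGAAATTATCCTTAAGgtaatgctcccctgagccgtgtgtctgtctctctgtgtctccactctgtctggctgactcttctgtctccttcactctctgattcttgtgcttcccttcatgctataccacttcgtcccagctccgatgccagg
Itpr1, chr6:108469260-108469529, plus strand: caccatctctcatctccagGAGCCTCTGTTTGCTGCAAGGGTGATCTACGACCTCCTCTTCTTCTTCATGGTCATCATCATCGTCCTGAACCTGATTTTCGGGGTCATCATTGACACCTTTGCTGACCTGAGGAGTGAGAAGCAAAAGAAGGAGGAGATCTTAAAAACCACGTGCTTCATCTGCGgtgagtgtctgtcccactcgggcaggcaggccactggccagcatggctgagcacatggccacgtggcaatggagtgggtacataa
Fn1, chr1:71665920-71666189, minus strand: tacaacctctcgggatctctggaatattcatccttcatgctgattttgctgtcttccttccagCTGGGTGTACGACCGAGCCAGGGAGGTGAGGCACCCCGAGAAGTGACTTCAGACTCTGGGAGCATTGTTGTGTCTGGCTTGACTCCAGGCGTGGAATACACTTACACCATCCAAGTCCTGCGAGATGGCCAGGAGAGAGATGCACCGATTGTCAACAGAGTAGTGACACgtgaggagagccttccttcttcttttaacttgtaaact
Col3a1, chr1:45387900-45388109, plus strand: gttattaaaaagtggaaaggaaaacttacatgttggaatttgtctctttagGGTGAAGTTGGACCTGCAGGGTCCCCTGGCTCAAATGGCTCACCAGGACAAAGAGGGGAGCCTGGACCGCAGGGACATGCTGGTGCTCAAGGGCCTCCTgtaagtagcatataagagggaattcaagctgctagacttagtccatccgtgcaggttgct
Smarca4, chr9:21470100-21470339, plus strand: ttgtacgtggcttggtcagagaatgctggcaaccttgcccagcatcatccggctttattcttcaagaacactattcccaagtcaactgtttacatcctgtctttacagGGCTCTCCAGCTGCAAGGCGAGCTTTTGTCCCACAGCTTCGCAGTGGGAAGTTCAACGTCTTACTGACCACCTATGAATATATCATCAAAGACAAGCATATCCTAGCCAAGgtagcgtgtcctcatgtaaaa
Arid2, chr15:96194010-96194309, plus strand: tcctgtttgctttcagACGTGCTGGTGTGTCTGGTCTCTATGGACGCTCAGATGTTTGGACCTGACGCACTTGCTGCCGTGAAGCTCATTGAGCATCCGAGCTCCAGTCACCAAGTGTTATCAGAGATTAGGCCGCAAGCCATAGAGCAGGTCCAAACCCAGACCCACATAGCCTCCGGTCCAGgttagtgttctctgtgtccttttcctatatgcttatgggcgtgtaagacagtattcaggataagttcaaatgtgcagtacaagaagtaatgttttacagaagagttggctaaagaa
Nrxn3, chr12:90347730-90348029, plus strand: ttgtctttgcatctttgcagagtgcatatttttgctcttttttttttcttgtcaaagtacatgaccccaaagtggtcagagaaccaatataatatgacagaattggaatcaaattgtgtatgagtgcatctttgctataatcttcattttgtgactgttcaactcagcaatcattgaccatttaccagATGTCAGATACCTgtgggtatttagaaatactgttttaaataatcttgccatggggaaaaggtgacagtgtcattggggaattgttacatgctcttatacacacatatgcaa

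The exons in these 9 regions ranged from 13 bp in Nrxn3 to 169 bp in Fn1, and the regions from 32.1% GC in Ttn to 52.6% GC in Itpr1. The Ttn region holds coding exon 126 of 347, the Smarca4 region coding exon 17 of 34 and the Fn1 region coding exon 22 of 46, counted from the 5' end over the merged CDS of each gene. The exons shown for Ttn, Cacna1c and Nrxn3 are alternative, that is, missing from at least 1 annotated coding transcript that spans them, and the other 6 are constitutive. In each case the region takes in both splice sites and part of both introns.

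Most of the 29119 regions over coding exons consisted mainly of non-coding sequence. The median region held 138 coding bases, which made up 10.4% of its length, with quartiles of 5.03% and 22.0%. A single coding exon was touched by 21410 regions (73.5%), 2 to 4 exons by 7085 regions (24.3%) and 5 or more exons by 624 regions (2.14%). At least 1 whole coding exon lay inside 21769 regions (74.8%). The centre of the region fell in a coding exon in 5281 regions (18.1%), and every base was coding in 613 regions (2.11%). The regions touched 10726 protein-coding genes, with a median of 2 regions a gene. Of these genes, 4085 had a single region and 205 had 10 or more.

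The distance limit set aside 10686 of the 39805 autosomal regions that touched coding sequence. For 1191 of them (11.1%), the gene end nearby belonged to another gene, nested in or next to the one whose exon was touched. Among Ttn, Ryr2, Fn1, Myh6 and Myh7, this applied to 2 regions of Ttn, near Gm13938, and to 2 regions of Myh6, the α-myosin heavy chain gene, near Mir208a, a microRNA gene in its intron. Just outside the limit, at 500 to 1000 bp from a gene end, 1780 regions over coding sequence had a median length of 870 bp. Just inside it, at 1000 to 1500 bp, 1582 regions had a median length of 990 bp.

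Regions over internal coding exons were longer than regions inside introns. Their median length was 1410 bp (95% interval 1380 to 1440 bp), with quartiles of 570 and 2880 bp, against a median of 510 bp (510 to 540 bp) for the intronic regions, with quartiles of 300 and 1260 bp. The rule itself favours such a difference, because a long region is more likely to reach an exon and less likely to stay inside an intron. Of all autosomal regions of 210 to 300 bp, 2.88% were over internal coding exons, and this share rose through every length class to 14.7% of regions over 9600 bp (interval 13.4% to 16.1%). Over the same classes, the share wholly inside introns fell from 34.5% to 16.0%. When the centre of the region had to lie in coding sequence, the median length was 540 bp.

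**Figure D1:**
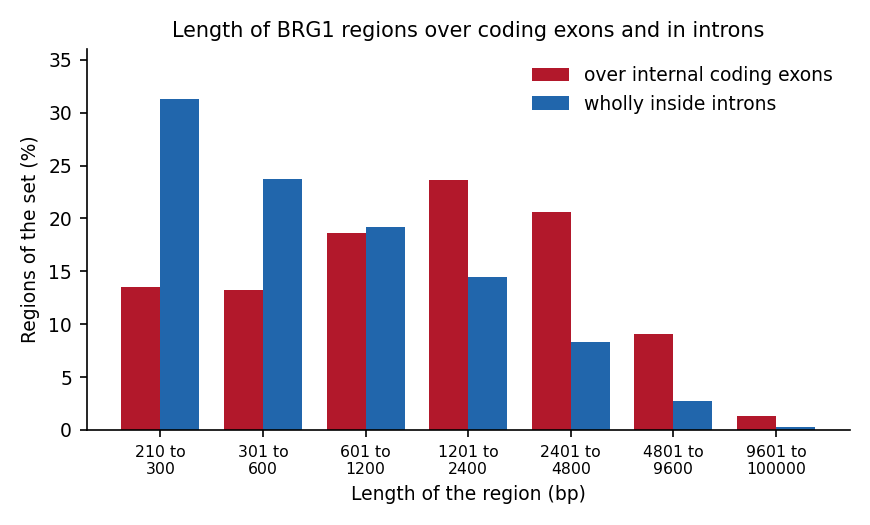
Share of each set of regions (y axis, %) by length of the region in bp (x axis), for the 29119 regions over internal coding exons (red) and the 149891 regions wholly inside introns (blue). Regions of 210 to 300 bp make up 13.5% of the former and 31.3% of the latter, and regions of 2401 to 4800 bp 20.6% and 8.32%.

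To avoid choosing regions by their overlap, it was also counted how often a fixed point falls inside a region. The midpoint of an internal coding exon, whose every base lies more than 1 kb from gene ends, was inside a region for 42918 of 159127 exons, or 27.0% (Wilson interval 26.8% to 27.2%). The same held for 46106 of 168852 intron midpoints, or 27.3% (27.1% to 27.5%). Of an intron, only the midpoint had to lie more than 1 kb from gene ends, so the limit was looser than for exons. The difference, exon minus intron, was -0.33 percentage points (Newcombe interval -0.64 to -0.03). As a background for both, regions of at most 100 kb covered 25.7% of the bases of the autosomes, unsequenced bases included. The share of the sequenced bases alone was not counted. Coding exons were thus inside BRG1 regions about as often as introns, and the sign of the small difference turned with the way exons and introns were compared. It was -0.33 points over all midpoints, 0.54 points where both had 40 to 50% GC, and 0.62 points when introns were weighted to the GC content of the exons. At midpoints whose 32 bp stretch occurs once in mm9 it was -0.65 points (-0.96 to -0.33), and at the fewer midpoints with a repeated stretch 2.25 points (1.05 to 3.45). Neighbouring exons share regions, so the counting intervals are too narrow.

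By chromosome, the share of exon midpoints inside a region ran from 24.9% on chromosome 17 to 30% on chromosome 3. It lay below the intron share on 12 of 19 autosomes and above it on 7. The difference ranged from -1.31 points on chromosome 16 to 0.28 points on chromosome 9, and the interval of each chromosome's difference included 0.

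Coverage by regions did not peak at exons. Around the midpoints of 22333 coding exons with at least 2.5 kb of intron on both sides, the share of positions inside a region was 28.5% at the exon itself (27.9% to 29.1%). Over the 2 kb on either side it varied between 28.3%, at 100 bp downstream, and 29.6%, at 1050 bp upstream. Regions of 210 to 300 bp, which are of the size of an exon with its splice sites, covered 1.34% of the exon midpoints and between 1.27% and 1.65% of the other positions. Regions over 2400 bp covered 15.7% of the exon midpoints and between 15.2% and 15.9% of the positions around them. The midpoints of 31687 introns of at least 5 kb were inside a region in 27.3%, with a range of 27.1% to 28.0% over the same distances.

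**Figure D2:**
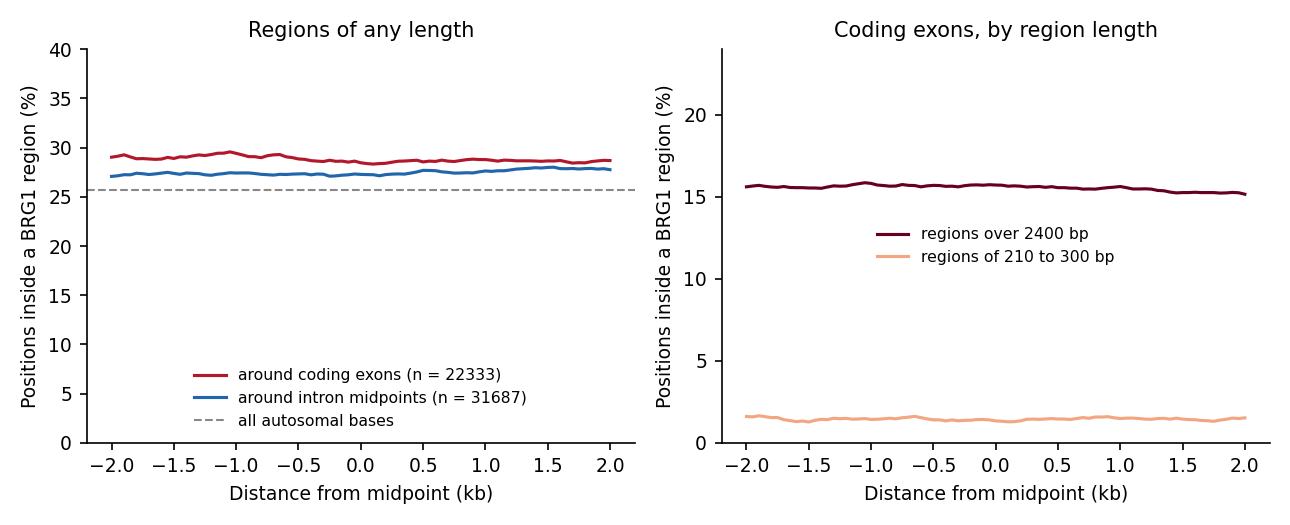
Share of positions inside a BRG1 region (y axis, %) by distance from the midpoint in kb (x axis, positive values downstream for exons). Left, isolated coding exons (red), long introns (blue) and all autosomal bases, unsequenced ones included (dashed, 25.7%). Right, the same exons with regions over 2400 bp (dark) and of 210 to 300 bp (light). The exon line stays between 28.3% and 29.6% and has no peak at the exon.

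The length of the region that held a midpoint made a small difference. Regions of 301 to 600 bp held 1.93% of exon midpoints and 2.26% of intron midpoints, a difference of -0.33 points (-0.43 to -0.23), and regions of 601 to 1200 bp held 3.65% and 3.84%. Regions of 2401 to 4800 bp held 7.48% of exon midpoints and 7.32% of intron midpoints, and 6.88% of the latter when weighted to the GC content of the exons. In regions of 210 to 300 bp, exons and introns had 1.59% and 1.60%. Of the exon midpoints inside any region, 27.7% lay in regions of 2401 to 4800 bp and 5.90% in regions of 210 to 300 bp.

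The share of covered exons differed more between classes of GC content than between exons and introns. The 200 bp around exon midpoints had a median GC content of 49.5%, against 45.5% around intron midpoints. Among coding exons with under 35% GC, 30.3% of midpoints were inside a region (29.4% to 31.2%), and the share fell in every further class to 23.8% (23.1% to 24.6%) at 60% GC or more. Introns went from 30.5% to 22.7% over the same classes. Within a GC class, the exon share was above the intron share in 6 of 7 classes, by between 0.32 and 1.19 points, but the interval of the difference lay above 0 only at 35 to 40% GC (0.22 to 2.04) and at 45 to 50% GC (0.02 to 1.36). Under 35% GC, the difference was -0.23 points (-1.36 to 0.90). Exons inside a region had a median GC content of 49.0% and those outside 50%. The list does not allow a check of how GC content affected the sequencing, and its part in this trend was not tested.

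**Figure D3:**
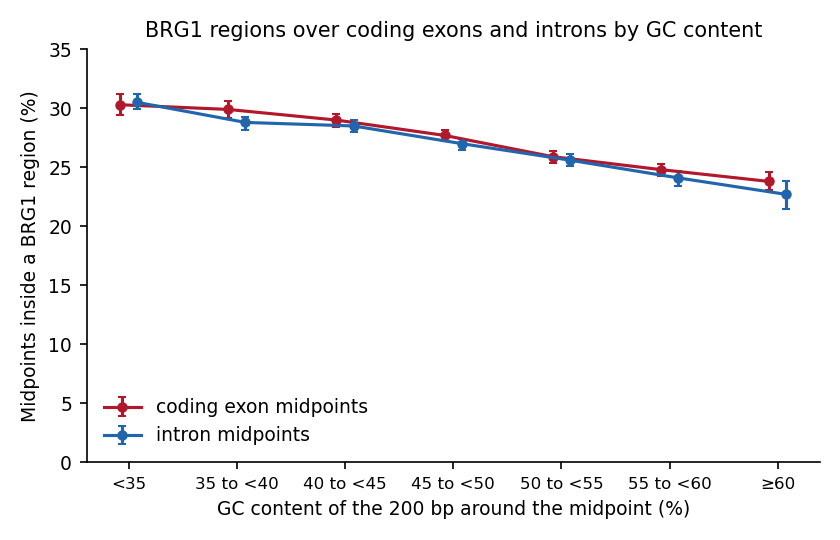
Share of midpoints inside a BRG1 region (y axis, %) by GC content of the 200 bp around the midpoint (x axis, %), for internal coding exons (red) and introns (blue). Bars are 95% Wilson intervals. Both lines fall with GC content, for exons from 30.3% to 23.8% and for introns from 30.5% to 22.7%.

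Other properties of the exon went with smaller differences in its share than GC content did. Exons of under 50 bp had their midpoint inside a region in 27.7% (26.8% to 28.5%), exons of 100 to 149 bp in 27.0% and exons of 500 to 999 bp in 24.5% (22.9% to 26.1%). Exons whose shorter flanking intron was under 200 bp had a share of 25.7%, and exons with flanking introns of 2000 to 4999 bp one of 28.8% (28.2% to 29.4%). Introns of these lengths had 25.4% and 28.7%. Along the gene, exons within 5 kb of the TSS had 26.1% and exons more than 100 kb from it 27.9%. Among the coding exons of a gene ordered from the 5' end, the share was 27.3% in the first and 26.1% (25.6% to 26.6%) in the last of 5 parts of equal number.

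Because SWI/SNF has been linked to exon choice, alternative exons were compared with constitutive ones. Of 14933 alternative exons, 4042 had their midpoint inside a region, or 27.1% (26.4% to 27.8%). Of 105883 constitutive exons, which are in every annotated coding transcript that spans them, the share was 26.8% (26.5% to 27.1%). The difference of 0.26 points (-0.50 to 1.02) was within counting error. Exons of genes with a single coding transcript, or that no coding transcript spans, had 27.4%. The constitutive exons include those that only 1 of several coding transcripts spans. The annotation says which exons can be skipped in some tissue and not which are skipped in these hearts.

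In 14 genes listed for alternative exons in muscle or heart, alternative exons had the lower share, with overlapping intervals. Of their 238 alternative exons, 75 were inside a region, or 31.5% (25.9% to 37.7%), against 198 of 486 constitutive exons, or 40.7% (36.5% to 45.2%). Overlap of these intervals does not measure the difference, and an interval of the difference itself was not computed. Titin gives most of the alternative exons, with 50 of 157 inside a region and 78 of 182 constitutive exons. A single Ttn region holds 29 of these 50 alternative exons, so the exons are not independent and the intervals are too narrow. Without Ttn, the shares were 30.9% of 81 alternative and 39.5% of 304 constitutive exons. Neither of the 2 alternative exons of fibronectin was inside a region, nor any of the 5 of Pdlim5, a Z-disc scaffold, or of the 6 of Ldb3, its relative. In Cacna1c, 5 of 9 alternative exons were inside a region, and in Mef2d, a transcription factor of muscle, 3 of 3.

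Exons of a gene that lie close together were covered together. Where the midpoints of consecutive internal coding exons were at most 500 bp apart, the next exon was inside a region in 77.7% of pairs whose first exon was inside, and in 7.49% of pairs whose first exon was outside. At 1001 to 2000 bp, these shares were 55.8% and 16.1%, at 2001 to 5000 bp 43.3% and 22.2%, and beyond 20000 bp 30.7% and 27.6%. A region longer than the distance between midpoints can cover both. The part of region length in these shares was not tested, and pairs of points in introns were not counted.

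To compare base composition at a single length, regions of exactly 300 bp were used. The 1032 such regions over internal coding exons had a median GC content of 49.0% (48.0% to 49.7%), and the 11483 intronic ones 43.3% (43.0% to 43.3%). All 35454 autosomal regions of this length had 42.7%. Regions over exons held a mean of 5.30 CpG dinucleotides, against 2.66 in introns, and at least 1 CpG was present in 95.9% and 85.2%. Coding exons are richer in G and C whether or not a region covers them, as the values for all midpoints show. With length, the median GC content of regions over exons fell from 49.3% at 210 to 300 bp to 42.2% at 4801 to 9600 bp, where intronic regions had 40.7%.

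Motifs of 5 kinds of factor were searched on both strands of the 300 bp regions. The GATA motif AGATAA occurred in 11.4% of regions over coding exons (9.63% to 13.5%) and in 17.4% of intronic regions (16.8% to 18.1%). The C/EBP motif TTGCNNAA occurred in 10.5% (8.74% to 12.5%) and 12.6%, and the AP-1 motif TGANTCA in 6.69% (5.32% to 8.38%) and 8.44%. The TEAD motif GGAATG was present in 155 of the 1032 regions over exons (13.0% to 17.3%) and in 15.1% of intronic ones, and the E-box CANNTG in 80.7% and 81.1%. Among all autosomal regions of this length, GATA was found in 17.4%, C/EBP in 13.7%, AP-1 in 8.03%, TEAD in 15.8% and the E-box in 80.9%. The regions over exons also have the higher GC content, and its part in the lower share with the AT-rich GATA motif was not tested. Of the regions printed above, the Ttn region holds the GATA and TEAD motifs and the Neb region the AP-1 motif. A match is a match of letters and says nothing of binding by the factor.

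The genes with the most regions over internal coding exons are long genes with many exons. Ttn, the giant spring of the sarcomere on chr2:76542037-76820604 (minus strand), had 44 regions. It was followed by Gpr98, a large adhesion receptor known from hair cells, with 33, by Syne1, which ties the nucleus to the cytoskeleton, with 32, and by Csmd3, a membrane protein of the brain, with 30. Dnahc8, a dynein heavy chain of cilia and sperm tails, had 24. Ank2, a membrane anchor of channels and exchangers in heart muscle, Itpr1, Neb and Syne2, a relative of Syne1, had 22 each, and Macf1, a linker of microtubules and actin, had 21. Genes of muscle and genes best known from brain, hair cells or cilia thus stand side by side in this ranking. By share of exon midpoints inside a region, these 10 genes ran from 25% (18.6% to 32.7%) for Syne1, with 36 of 144 exons, to 46.0% (34.3% to 58.2%) for Itpr1, with 29 of 63 exons. Introns had 26.4% in Syne1 and 47.6% in Itpr1. Exon and intron shares were furthest apart in Ank2, at 39.3% and 46.6%, and, in the other direction, in Macf1, at 27.7% and 23.3%.

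Titin shows the range of forms that these regions take. Its 44 regions were 210 to 11760 bp long, with a median of 810 bp, and 128 of its 339 internal coding exons had their midpoint inside a region, or 37.8% (32.8% to 43.0%). Its introns had 38.2%. The region with the most coding exons of the whole set, chr2:76667520-76678439, spans 10920 bp and holds 29 of them, numbers 153 to 181, all alternative. Of these 29 exons, 22 have a midpoint whose 32 bp stretch occurs once in mm9, and for the other 7 the stretch recurs elsewhere in the genome. Over Ttn as a whole, 12 internal exons lacked a unique stretch, and 7 of these were inside a region. The longest region of the gene, chr2:76605990-76617749, reaches 22 coding exons with 6161 coding bases. At the other extreme, coding exon 309, the longest internal coding exon in the annotation with 17106 bp, holds 3 regions of 270, 360 and 480 bp wholly inside it. They cover 1110 bp, or 6.49% of that exon.

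**Figure D4:**
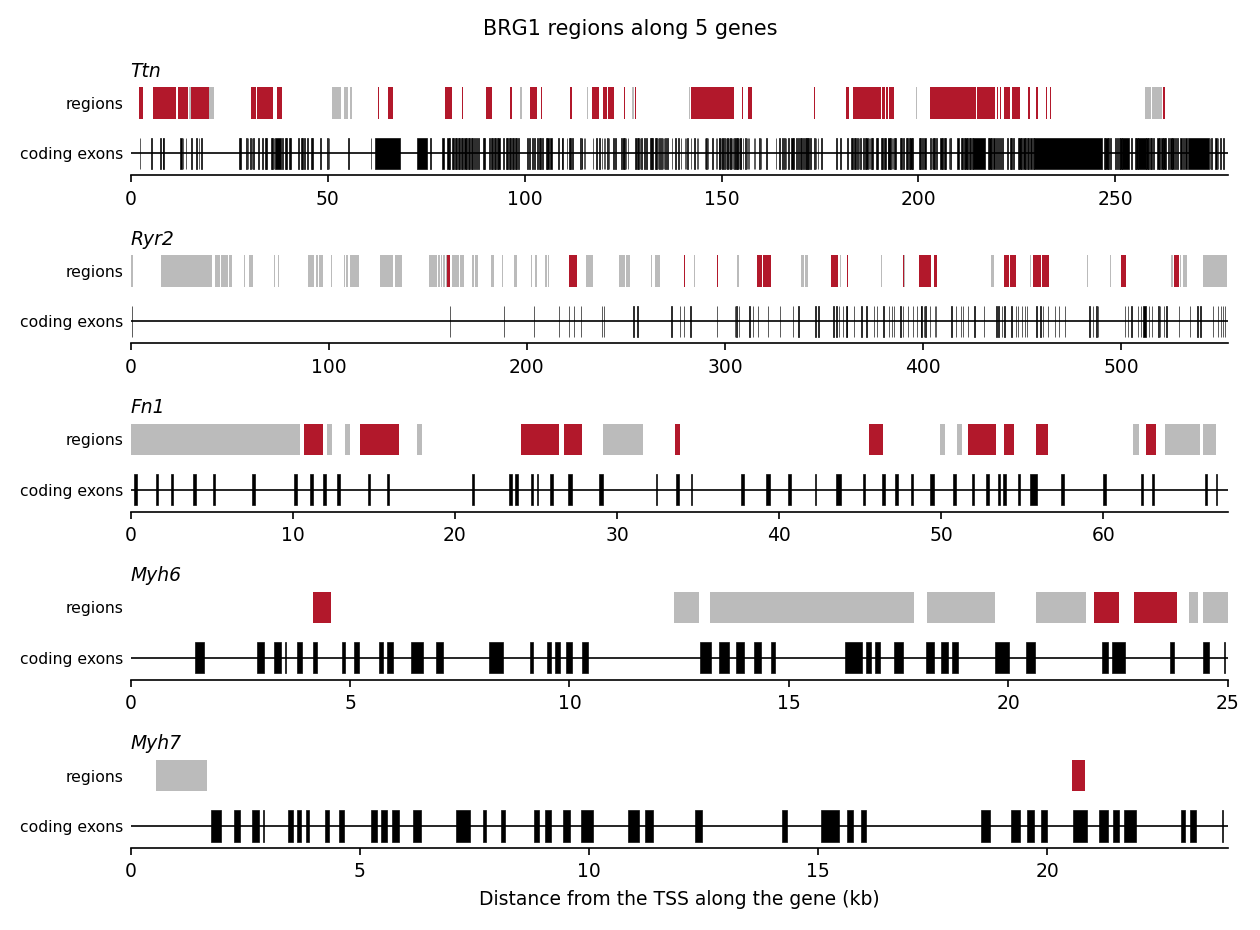
BRG1 regions and coding exons along Ttn, Ryr2, Fn1, Myh6 and Myh7, by distance from the TSS in kb (x axis, drawn to the length of each gene). Red bars are regions over internal coding exons and grey bars other regions. The grey bars include regions that touch coding exons but lie within 1 kb of a gene end. Black bars are coding exons, with a thin outline so that short exons can be seen. Ttn has 44 red regions, Ryr2 20, Fn1 10, Myh6 3 and Myh7 1.

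Ryr2, the calcium release channel of heart muscle, had 20 regions of 240 to 4080 bp, of which 14 touched a single coding exon. With 33 of 104 exons, its share was 31.7% (23.6% to 41.2%). At Smarca4, which encodes BRG1 itself, 10 regions of 240 to 7260 bp lay over internal coding exons, and 17 of 34 exons were inside a region, or 50% (34.1% to 65.9%). Its introns had 55.9%. The longest of these regions, chr9:21475260-21482519, holds 5 coding exons, numbers 22 to 26, and the shortest is the region of 240 bp printed above.

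Among 1951 genes with at least 20 internal coding exons, the share of exons inside a region had a median of 26.1%, with quartiles of 16.7% and 35.7% and 5th and 95th percentiles of 4.35% and 53.6%. No exon midpoint was inside a region in 59 of these genes, over 50% were inside in 122 genes, and no gene had every exon inside. The exon share lay above the intron share of the same gene in 842 genes, below it in 950 and equal to it in 159. Across these genes, exon and intron shares had a Pearson r of 0.86. Both shares rest on the same regions, and genes are not independent replicates. With the median GC content of the exons, r was -0.12.

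At the upper end stood Wdr36, a nucleolar protein gene, with 19 of 21 exons inside a region, or 90.5% (71.1% to 97.3%). It was followed by Jag2, a Notch ligand, with 81.8% of 22 exons, Igdcc4, an immunoglobulin superfamily member, with 81.0% of 21, and Ano9, of the anoctamin family, with 80.0% of 20. Dnmt1, the maintenance DNA methyltransferase, had 28 of 36 exons inside a region, or 77.8% (61.9% to 88.3%). In Ano9, a single region over internal coding exons was counted, and in Dnmt1 8. At the lower end, the 5 genes with the most exons and none inside a region were Muc2, an intestinal mucin, with 44 exons, Col1a1, the α1 chain of type I collagen, with 40, Agrn, a heparan sulphate proteoglycan, with 39, Heatr7b1, a HEAT repeat gene, with 38, and Plxnb1, a semaphorin receptor, with 36. Regions over internal coding exons were still counted in Agrn (1 region), Heatr7b1 (2) and Plxnb1 (1), away from these midpoints, and none in Muc2 and Col1a1. For Col1a1, 0 of 40 allows a share of up to 8.76% by the Wilson interval, and none of its 41 intron midpoints was inside a region.

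The gene lists were read beside the 27.0% of all internal coding exons. Of all 16337 protein-coding genes with such exons, 6848 lay above this share and 9489 below, and 10632 had a region over an internal coding exon. In the sarcomere list, 298 of 908 exons were inside a region, or 32.8% (29.8% to 35.9%), with 129 regions over 13 of 13 genes and 8 genes above the share of all exons. Mybpc3, a thick filament protein, had 18 of 31 exons inside a region (58.1%, 40.8% to 73.6%), Actn2, the α-actinin of the Z-disc, 10 of 19, and Flnc, a filamin of muscle, 22 of 45. The adjacent myosin genes stood apart from each other. Myh6, the adult isoform of the mouse ventricle, had 9 of 29 exons inside a region, and Myh7, the fetal isoform, had 1 of 31 (3.23%, 0.572% to 16.2%). Exons of these 2 genes are alike in sequence, and in each of them 8 internal exons have no unique 32 bp stretch at the midpoint, among them the exon of Myh7 that was covered. Introns of the sarcomere list had 34.3%.

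In the list of calcium handling and channels, 132 of 441 exons were inside a region, or 29.9% (25.8% to 34.4%), and 6 of 12 genes lay above all exons. Atp2a2, the calcium pump of the sarcoplasmic reticulum, had 10 of 19 exons inside a region and Cacna1c, the pore of the L-type calcium channel, 23 of 51. The receptors of the inositol trisphosphate family differed, with 29 of 63 exons for Itpr1 and 5 of 58 for Itpr2 (8.62%, 3.74% to 18.6%). Hcn4, the pacemaker channel, had 0 of 6. Introns of the list had 31.2%.

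For matrix genes, the share was 30.4% of 796 exons (27.3% to 33.7%), and 10 of 17 genes lay above all exons. The partner chains of type I collagen were far apart, at 33 of 51 exons for Col1a2 (64.7%, 51.0% to 76.4%) and 0 of 40 for Col1a1. Their exons had median GC contents of 47.5% and 56.0%. Col3a1 had 22 of 50 exons inside a region and Fn1 20 of 44, whereas Col4a1, a basement membrane collagen, had 7 of 51 and Lamc1, a laminin chain, 1 of 28. Postn and Tnc, matrix proteins made after infarction, had 7 of 21 and 11 of 24. Introns of the matrix genes had 30%.

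Among SWI/SNF subunits, 86 of 262 exons were inside a region, or 32.8% (27.4% to 38.7%), with 7 of 14 genes above and 7 below all exons, and their introns had 37.1%. Smarcc1, a core subunit, had 14 of 28, Pbrm1, of the PBAF form of the complex, 8 of 31, Dpf3, a subunit of heart and muscle, 1 of 10 and Smarcd3, another such subunit, 0 of 5. The 14 genes listed for alternative exons had 37.7% of 724 exons inside a region (34.3% to 41.3%) and 36.8% of introns, with Nrap, a protein of the intercalated disc, at 21 of 33 and Mef2d at 8 of 12. This list shares Ttn, Ldb3, Camk2d, Cacna1c, Ryr2 and Fn1 with those above.

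Of the epicardial genes, 11 of 12 had an internal coding exon under the limits, all but Tcf21. Of their 86 exons, 37 were inside a region, or 43.0% (33.1% to 53.6%), with 8 genes above all exons and 3 below. Introns of the list had 39.1%. Upk3b, a uroplakin of mesothelium, and Gata5, a transcription factor, had 4 of 4 exons each, Dmkn 11 of 19 and Tbx18, an epicardial transcription factor, 4 of 7. Wt1, the zinc finger factor of the epicardium, had 3 of 10 exons inside a region but no region that met the rule, because a region can cover an internal exon and itself lie within 1 kb of a gene end. Upk1b and Krt8 had 0 of 6 exons each. Most of these genes, but not Dmkn, Gata5, Krt8 or Vcam1, are named for BRG1 binding in the text of the study. The list was drawn up with that text known, so that its share does not stand on its own.

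As genes of another tissue, synaptic genes were counted as well, and 133 of 389 exons were inside a region, or 34.2% (29.7% to 39.0%), with 12 of 15 genes above all exons. Introns of the list had 33.3%. Syn1 lies outside the autosomes. Csmd3 had 32 of 70 exons inside a region, Unc13a, a vesicle priming factor, 18 of 49, and Grin2b, a glutamate receptor subunit, 6 of 10. The 3 genes below all exons were Csmd1, with 17 of 66, Gria2, with 3 of 13, and Cntnap2, with 4 of 23. The interval of the synaptic list overlapped those of the sarcomere, calcium, matrix, SWI/SNF and epicardial lists. By share of exons inside a region, genes of neurons and genes of the contractile apparatus, at 34.2% and 32.8%, cannot be told apart within counting error.

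**Figure D5:**
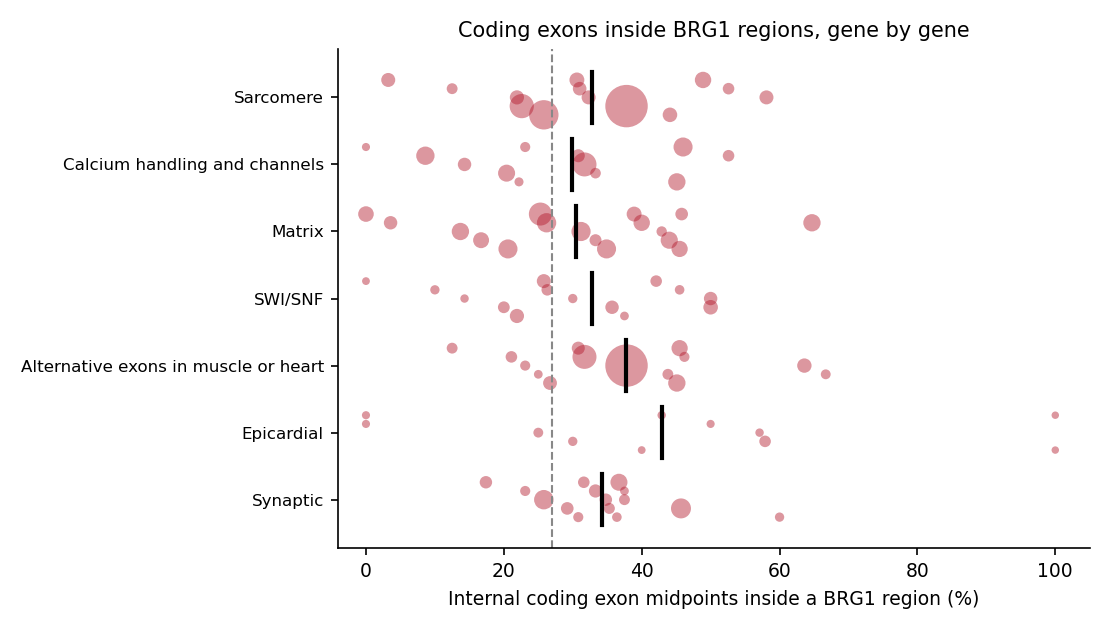
Share of internal coding exon midpoints inside a BRG1 region (x axis, %) for each gene (points, with area growing with the number of exons) of 7 lists (y axis). Black bars give the share over all exons of a list and the dashed line the 27.0% of all internal coding exons. Within every list, genes spread widely around the bar, in the matrix list from 0 for Col1a1 to 64.7% for Col1a2.

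The 3 longest regions over internal coding exons lay mostly on bases that mm9 leaves unsequenced. The longest, chr9:80255340-80330669, was 75330 bp long and touched 2 coding exons of Impg1, a matrix protein of the retina, but 95.6% of its bases are unsequenced. In the region of 57600 bp at Myo3a, an unconventional myosin, the share was 87.0%, and in that of 51660 bp at Traf5, a signalling adaptor, it was 96.8%. The other 2 regions over 20 kb hold no unsequenced base. They are 21480 bp long at Slc4a4, a bicarbonate cotransporter, with 2 coding exons, and 20970 bp long at Tnik, a kinase, with 1 coding exon. Of the 29119 regions, 11 held an unsequenced base, and in 4 of them such bases made up at least 50% of the length.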

How the data were processed

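The authors sequenced BRG1 ChIP and input libraries of injured hearts, 2 of each kind after PBS priming and 2 after Tβ4 priming. Per the submitters' processing notes and the methods, reads were mapped to mm9 with Bowtie 1.0.0, which dropped reads with more than 2 alignments, and regions were called with MACS2 2.0.10. The methods point to its bdgcomp function but the file is named like bdgdiff output, so the function that made the regions is unsure. The sources used here do not say how the duplicates were combined. The deposited list holds start and end positions for the Tβ4-primed hearts. PBS-primed data, inputs, the sex chromosomes and 4 regions over 100 kb were left out.

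Regions were set against the GENCODE annotation of mm9 (release M1), with positions counted from 1. CDS intervals of a gene were merged into coding exons, and intron midpoints had to lie outside every annotated exon. GC content was taken over 200 bp. Python 3.11.15 with numpy 2.4.6, pysam 0.24.0, numba 0.67.0 and matplotlib 3.10.9 was used, and counting was tested on simulated regions against bedtools 2.31.1.

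Members and lists were chosen with earlier results of these data known. Named genes were the 10 with the most regions, the 5 highest and 5 lowest by share among genes with at least 20 internal coding exons (ties by number of exons), the genes of the 5 longest regions, and examples from 7 gene lists, some items of which are not reported here. Alternatives changed the overlap, the distance limit, the joining of regions, region and intron length, GC content and the weight of genes. Uniqueness of 32 bp stretches and the weighting by GC content were added after seeing the data.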

Additional observations from a re-analysis of the deposited data

How the results depend on the processing

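Of 59 values under alternatives, 32 stayed within 1.5 times the main count or within the main 95% interval. The number of regions over coding exons fell to 5281 when the centre had to lie in coding sequence, where the median length was 540 bp and the median GC content at 300 bp 51.3%. It was 19827, the lowest count of the other rules, when regions also had to lie more than 1 kb from the ends of every annotated transcript. The remaining overlap, distance, length and joining rules gave between 21769 and 29039 regions.

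With regions within 500 bp joined, the shares inside a region were 29% of exons, 29.1% of introns, 29.2% of alternative exons and 28.9% of constitutive exons. With regions of at most 1 kb, they were 5.91% of exons and 6.43% of introns. At 40 to 50% GC, they were 28.2% of exons, 27.7% of introns, 28.6% of alternative exons and 28.1% of constitutive exons. With introns of at least 2 kb, exons had 28.6% and introns 28.1%. Single autosomes ranged from 24.9% to 30% for exons and from 25.4% to 29.9% for introns. Introns had 27.7% at midpoints with a unique 32 bp stretch and 26.3% when weighted to the GC content of the exons.

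The exon minus intron difference, -0.33 points, turned to 0.54 points at 40 to 50% GC, 0.56 points with introns of at least 2 kb, 0.62 points with introns weighted by GC content and 0.28 points on chromosome 9. It was -1.31 points on chromosome 16, -0.65 points at unique stretches and -0.55 points with each gene counted once. The cause was not tested.

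No paired analysis was possible because the list does not separate the duplicates, and leaving out a replicate could not be run for the same reason. The copy of the reference used here marks no repeats, so repeats were not left out, and leaving out unsequenced midpoints gave -0.34 points. Without a score, the authors' threshold could not be varied. The depth is unknown, and with 1 list of Tβ4-primed hearts nothing can be said of an effect of Tβ4.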
